A study of Mus musculus with 4 samples.

Results

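The interferon-stimulated antiviral effector genes are 48 mouse genes whose RNA is induced by interferon and whose proteins act against viruses or tag and shape that response. They were taken as a named list, by their current or older symbol, from an array on which 24658 genes and transcripts could be tested. All 48 had at least 1 probe, 68 probes in all, and 4 of them were listed on the array under an older name (Trim30a, Uba7, Herc6 and Ifi27). The brightest probe stood for each gene. The RNA came from C3H10T1/2 cells, fibroblasts of mouse embryo origin in which chemical transformation is commonly scored, and each of 4 samples was hybridised to a one-colour microarray of its own. The cells of every array had first been transformed with the carcinogen methylcholanthrene (MCA, 2.5 µg/ml for 2 days), kept for 4 days in normal medium, given the phorbol ester TPA (100 ng/ml, 2 times a week for 2 weeks) and grown for another 4 weeks. The untreated group holds 2 arrays of these transformed cells, and the DEM group holds 2 arrays of such cells exposed to 0.25 mM diethyl maleate (DEM), an electrophile that binds glutathione. The sources used here do not give the length of the exposure. The array set used here holds no cells that were not transformed, and the labels name neither an interferon treatment nor a virus. Nothing in the labels tells whether replicate arrays stem from separate cultures, so p-values reflect the spread between these 4 samples alone, and that spread may be technical.

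Type I interferons bind the receptor made of IFNAR1 and IFNAR2 and activate the kinases JAK1 and TYK2. These phosphorylate STAT proteins, which join IRF9 and bind an element called ISRE in the promoters of the effector genes. Fibroblasts respond to interferon in this way and can also make interferon beta themselves, which keeps a low level of these RNAs in many cultures without infection. The effectors then block viruses at many steps, from entry (IFITM proteins) through RNA recognition and decay (IFIT and OAS proteins) to budding (tetherin).

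On each array 47.8% to 52.7% of spots were well above background, and the array's 75th percentile of signal came to 701 and 747 without and 449.9 and 412 with DEM. The median effector change given further on, -2.17, was -2.33 when arrays were scaled to spike-in spots in place of this percentile. Levels below are log2 signal minus that percentile, so a level compares the same probe between arrays and not 1 gene with another. Changes are DEM minus untreated on this log2 scale, with the standard error (SE) of a limma fit over all genes, n = 2 arrays per group. Each DEM array correlated with each untreated array at 0.964 to 0.968 across probes, against 0.987 within the untreated pair and 0.984 within the DEM pair. The 4 NRF2 target genes used as a check of the DEM label all rose, Hmox1 by 4.36 and Srxn1 by 4.75 on the log2 scale. All 10 fibroblast markers examined were well above background on all 4 arrays. Of these, 5 fell with DEM (Col1a2, Col3a1, Pdgfra, Pdgfrb and Dcn), and the summed level of the 10 was 10.62 and 10.67 on the untreated arrays against 9.77 and 10.30 with DEM. The count of 5 became 2 without untreated 1, without untreated 2 and with spike-in scaling. The share that this drop in fibroblast markers has in the effector results was not tested. Of 8 macrophage markers, Ptprc, Adgre1, Itgam and Fcgr1 were not well above background on any array, and Csf1r was on 1 DEM array. Cd68, Cd14 and Lyz2 were well above background on all 4. Cd68 and Cd14 did not pass, with changes of 0.27 ± 0.25 and 0.32 ± 0.23. Lyz2, which encodes lysozyme, fell 3.61-fold (log2 change -1.85 ± 0.35, adjusted p = 0.0141, limma), but did not pass without untreated 1, without untreated 2 or with spike-in scaling (adjusted p = 0.103, 0.0925 and 0.127, limma). The part of this in the effector results was not tested. The summed level of the 8 macrophage markers was 2.05 and 2.31 untreated and 2.22 and 2.64 with DEM. RNA was measured in bulk, so fewer cells of a kind and less RNA per cell cannot be told apart.

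Most effector genes had less RNA in the DEM-exposed cells. Of 46 that could be tested, 39 fell, 0 rose and 7 did not pass (limma, Benjamini-Hochberg adjusted p under 0.05 over all genes). The background was 11.8% of all genes tested lower and 15.5% higher. At an unadjusted p under 0.05, 41 effector genes were lower and 0 higher in the same limma fit. Of all 24658 genes tested, 4141 were lower and 6014 higher at that threshold. The median change of the 46 was -2.17 on the log2 scale, a 4.50-fold lower level, beside a median of 0.16 over all genes tested. It was -2.08 when the 5 genes dim on both DEM arrays were set to their smallest possible fall. Both DEM arrays lay under both untreated arrays for 42 of the 46, where 26% of all genes did. Both lay above for 1 (Ifi30), where 42.4% of all genes did, and the groups overlapped for 3 (Herc6, Parp12 and Ifi204). The 42 include the 5 genes dim on both DEM arrays, whose place the filter on dim probes set. Left out of the test were 2 members, Oas1g and Trim25, whose probes were not well above background on any array.

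**Figure D1:**
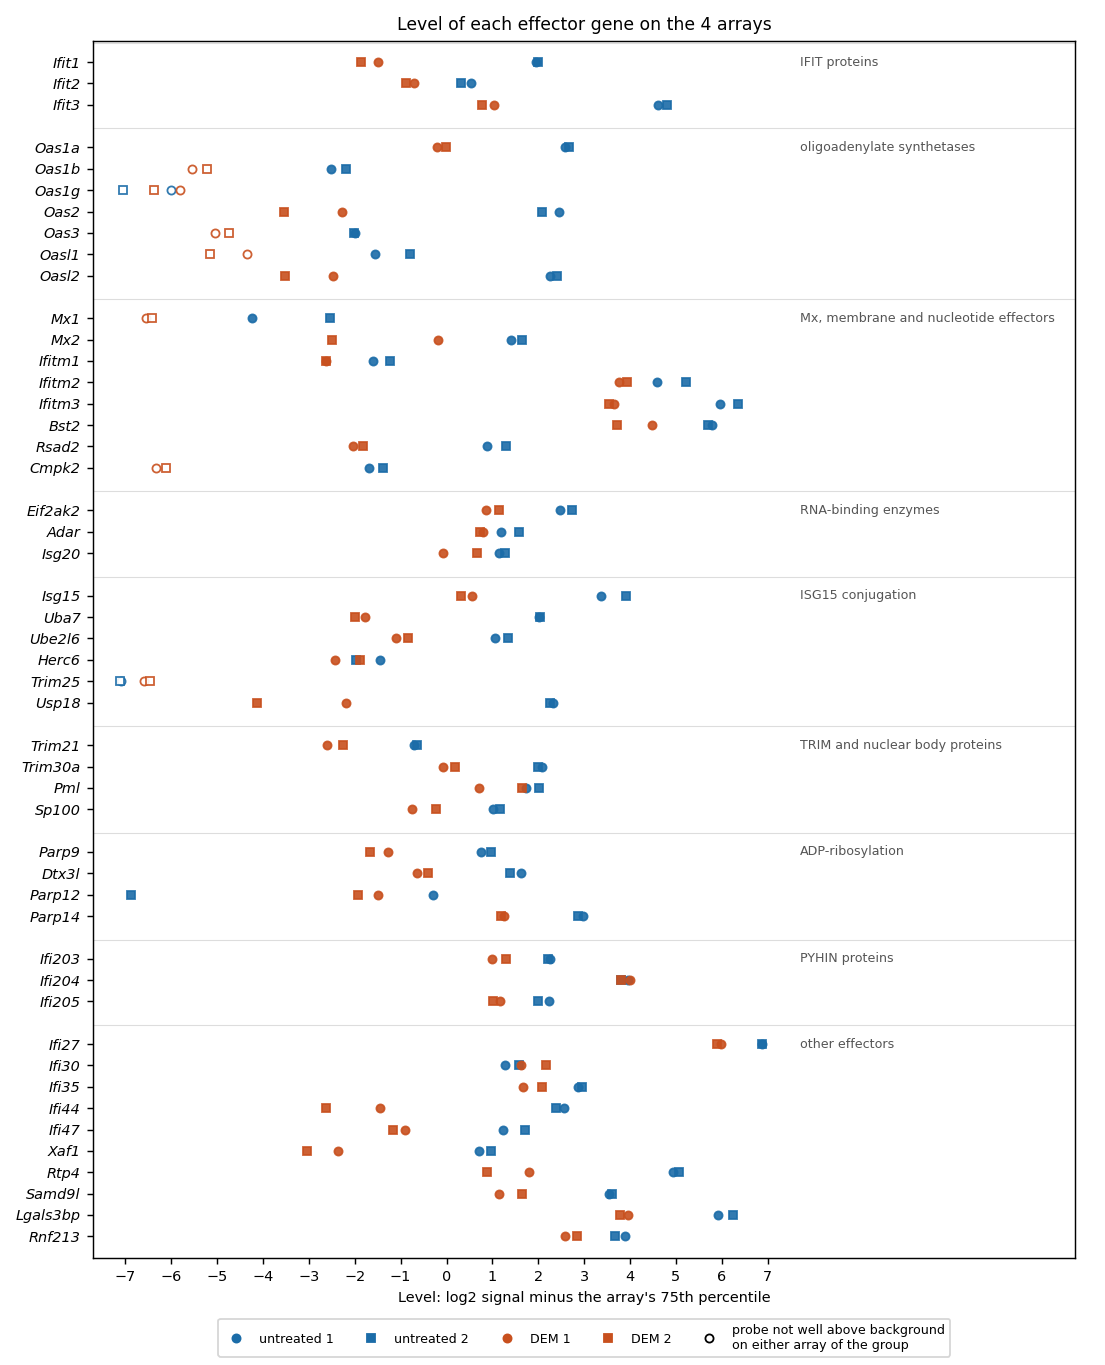
The level of each of the 48 genes on the 4 arrays (log2 signal, relative to the array's 75th percentile), with untreated arrays in blue, DEM arrays in orange, replicate 1 as circles and replicate 2 as squares; open symbols mark a probe that was not well above background on either array of that group. The orange symbols lie to the left of the blue ones for 42 of the 46 tested genes. These include the 5 genes dim on both DEM arrays, where the filter on dim probes set the side.

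A probe that passed the filter only because it was bright on the untreated arrays had to be lower with DEM, so the genes measured on every array are given apart. Of the 39 effector genes whose probe was well above background on all 4 arrays, 33 fell, 0 rose and 6 did not pass. Among all 21200 genes of that kind, 9.68% fell and 16.4% rose. The median change of the 39 was -1.98, beside 0.20 for all such genes. Of the 7 others tested, 6 fell and 1 (Parp12) did not pass. Of the 39 measured on every array, the fall was at least 2-fold in 32, where 7.33% of all such genes passed and fell that far. It was at least 4-fold in 19 (1.98% of all such genes) and at least 8-fold in 10 (0.656%). Leaving out untreated 2 lowered the count of fallen effector genes from 39 to 25, where 3.25% of all genes fell. Scaling to spike-in spots gave 24, where 3.61% of all genes fell. The calls of Ifit2, Ifitm1, Ifitm2, Bst2, Eif2ak2, Trim21, Sp100, Ifi203, Ifi205, Ifi27, Ifi35 and Rnf213 were lost in both. Those of Mx1 and Mx2 were lost only without untreated 2, and those of Trim30a, Dtx3l and Parp14 only with spike-in scaling, of these 2 settings.

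**Figure D2:**
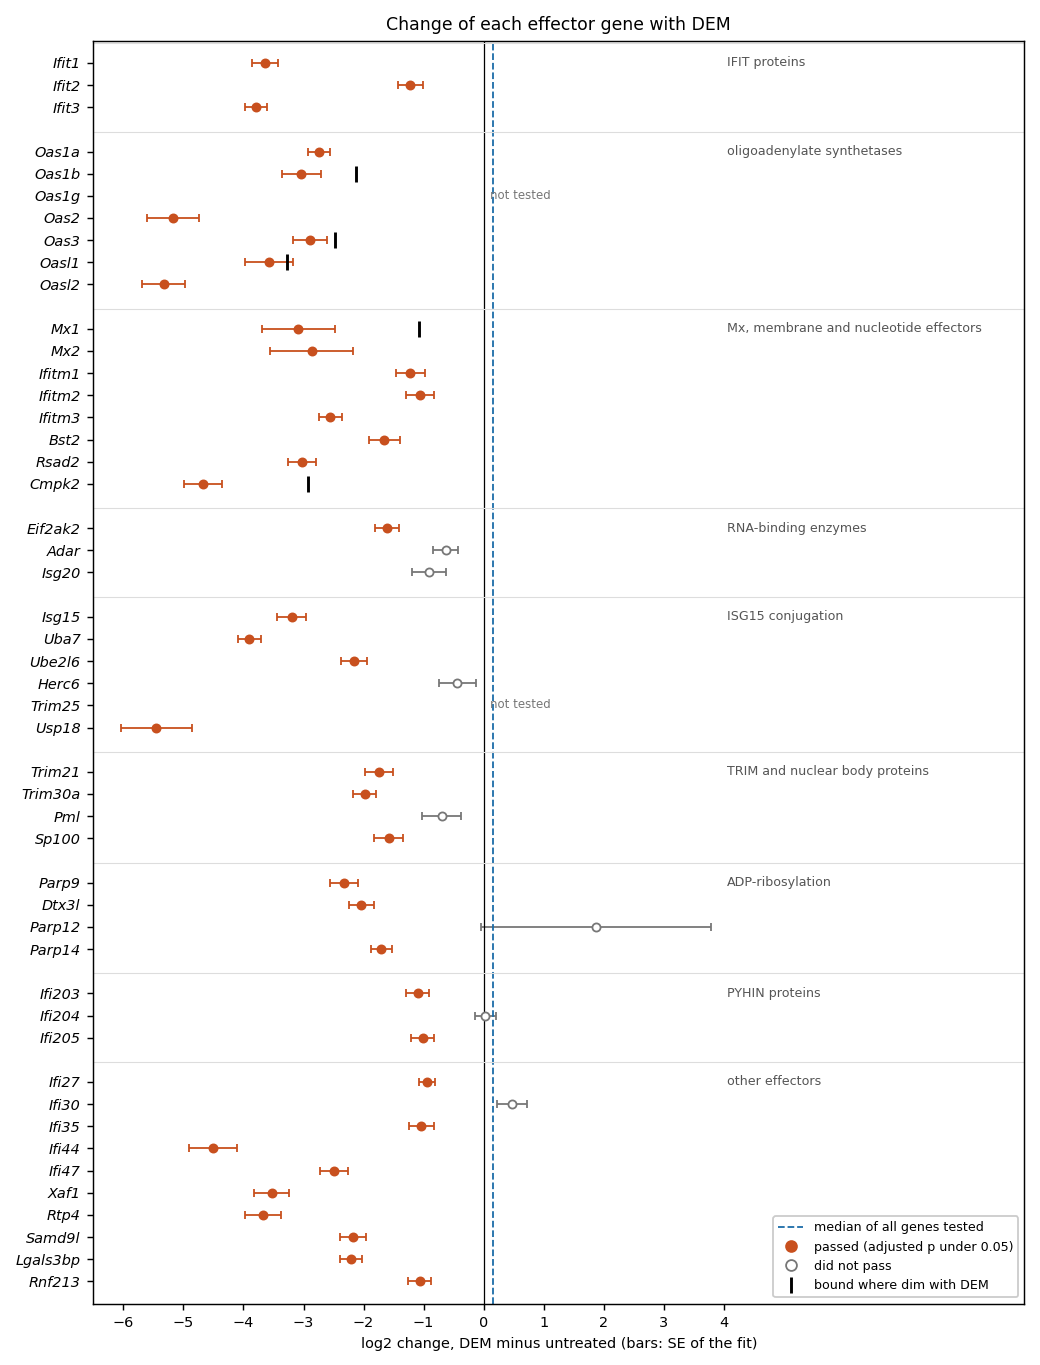
The fitted change of each gene (log2, DEM minus untreated; bars are the SE, n = 2 arrays per group), with filled symbols for an adjusted p under 0.05 and open symbols for genes that did not pass. The black ticks give the smallest fall allowed for the 5 genes dim on both DEM arrays, and the dashed line is the median of all genes tested, 0.16.

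The promoters of these genes are shown first, because the members fell together and many are known to share the ISRE. The RefSeq promoter table (GRCm38.p6; 250 bases before to 50 after each start site) held a window for 38 of the 48 members. The ISRE core searched was GAAA, any 2 bases (NN) and GAAA again, on both strands, with overlapping matches kept. It was found in 15 of the 38 members (39.5%), against 3.99% of all 27025 genes with a window and 3.44% of all windows. The 150 bases before the start site are printed here for 4 members that hold the core and for 2 that do not, in the direction of transcription. Capitals mark the ISRE core or its reverse complement, and runs longer than 10 bases are overlapping matches.

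Ifit1 (chr19:34640739-34640888, plus strand): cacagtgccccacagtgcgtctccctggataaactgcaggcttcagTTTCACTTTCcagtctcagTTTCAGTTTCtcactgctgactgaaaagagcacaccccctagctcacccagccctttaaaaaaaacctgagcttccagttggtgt

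Isg15 (chr4:156200819-156200968, minus strand): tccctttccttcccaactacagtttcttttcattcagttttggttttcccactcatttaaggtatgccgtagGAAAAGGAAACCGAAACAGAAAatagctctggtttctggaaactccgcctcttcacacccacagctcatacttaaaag

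Oas1a (chr5:120907526-120907675, minus strand): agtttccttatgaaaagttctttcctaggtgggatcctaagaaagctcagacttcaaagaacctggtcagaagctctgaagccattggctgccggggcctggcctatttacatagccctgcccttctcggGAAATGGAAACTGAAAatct

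Bst2 (chr8:71537473-71537622, minus strand): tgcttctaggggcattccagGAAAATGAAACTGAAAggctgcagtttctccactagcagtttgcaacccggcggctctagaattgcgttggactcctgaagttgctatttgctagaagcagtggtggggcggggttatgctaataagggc

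Oasl2 (chr5:114896784-114896933, plus strand): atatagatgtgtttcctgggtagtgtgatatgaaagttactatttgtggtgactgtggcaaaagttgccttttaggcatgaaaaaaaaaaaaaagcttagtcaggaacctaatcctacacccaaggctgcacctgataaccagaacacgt

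Ifi30 (chr8:70766664-70766813, minus strand): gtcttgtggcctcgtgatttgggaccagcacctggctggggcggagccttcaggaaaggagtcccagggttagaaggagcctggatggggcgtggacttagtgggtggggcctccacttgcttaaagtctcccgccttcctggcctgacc

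The Ifit1 promoter holds the core on the opposite strand at -104 and -85 from the start site. The Isg15 promoter holds 3 overlapping copies that begin at -78, -72 and -66, and Oas1a holds a pair at -20 and -14. In Bst2 a pair begins at -130 and -124, next to a match to the GAS core (TTCNNNGAA, an element best known from the response to interferon gamma) at -136 that overlaps it. The GAS core was found in 8 of the 38 members (21.1%), against 9.55% of all genes with a window. Of the genes with an ISRE core, 13 were measured on all 4 arrays, and 13 of them fell, with a median change of -1.98 and a range of -3.79 to -1.02. Of the 19 such genes whose window lacks this core, 14 fell, with a median of -1.58 and a range of -5.33 to 0.47. The pair of printed windows without a core belong to Oasl2, which is among the genes that fell furthest, and to Ifi30, which did not pass. A match describes the letters only, and no match says only that these letters are not in this window.

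All 3 IFIT genes fell. Some proteins of this family bind viral RNA that lacks the cap marks of host RNA. Ifit3 had untreated levels of 4.60 and 4.80, against 1.04 and 0.78 on the DEM arrays. It fell by 3.79 ± 0.19, or 13.8-fold (adjusted p = 0.00065, limma). Both DEM arrays lay far under both untreated arrays, and each pair agreed closely. On DEM 2 the scanner software had not found the Ifit3 spot, whose mean signal was 777 over a local background of 29. Ifit1 had levels of 1.94 and 1.99 untreated and -1.49 and -1.87 with DEM, a 12.5-fold fall (log2 change -3.65 ± 0.21, adjusted p = 0.000719, limma). Its groups were again apart, with the untreated arrays nearly equal. Ifit2 fell less, 2.33-fold (log2 change -1.22 ± 0.21, adjusted p = 0.0102, limma). A close copy of Ifit3 lies beside it in the mouse genome, so its probe may share signal.

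Among the oligoadenylate synthetases, the active enzymes make the messenger that switches on RNase L, the enzyme that cuts viral and host RNA. The 3 genes of this family that were measured on all 4 arrays (Oas1a, Oas2 and Oasl2) fell, with changes from -5.33 to -2.74. Oasl2 had untreated levels of 2.26 and 2.42, against -2.47 and -3.51 on the DEM arrays. This was a 40.1-fold fall (log2 change -5.33 ± 0.36, adjusted p = 0.00102, limma). The DEM pair differed more than the untreated pair, yet both stayed far under the untreated levels. Oas1a went from 2.59 and 2.66 to -0.21 and -0.02, a 6.68-fold fall (log2 change -2.74 ± 0.18, adjusted p = 0.00102, limma). The untreated arrays were both high and the DEM arrays both low. Oas2 fell 36.1-fold, from 2.44 and 2.08 to -2.27 and -3.55, so that one DEM array was lower than the other by more than 1 unit. Oas1b, Oas3 and Oasl1 were bright on both untreated arrays and not well above background on either DEM array. They entered the test only through the untreated arrays, so their direction was set by the filter. They were at least 4.35-fold, 5.54-fold and 9.69-fold lower, which are bounds set by the lowest signal that counts as well above background. Oas1g was not well above background on any array, and genes of the Oas1 cluster are similar enough that probes may share signal.

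Of 8 effectors at the membrane, in the nucleotide pool and of the Mx family, 6 were measured on all 4 arrays. These 6 fell, with changes of -3.02 to -1.06 on the log2 scale. Ifitm3, which blocks the fusion of virus and endosome membranes, had levels of 5.96 and 6.35 untreated and 3.66 and 3.55 with DEM. It fell 5.87-fold (log2 change -2.55 ± 0.19, adjusted p = 0.00114, limma). The 4 levels formed a high untreated pair and a low DEM pair without overlap. Its relatives Ifitm2 and Ifitm1 fell less, with changes of -1.06 ± 0.24 and -1.22 ± 0.25, and IFITM probes may share signal. Bst2, or tetherin, which holds budding virus at the cell surface, fell by 1.65 ± 0.26. Rsad2, or viperin, makes a chain-terminating nucleotide from the product of its neighbour Cmpk2. Rsad2 had levels of 0.89 and 1.29 untreated and -2.03 and -1.83 with DEM, an 8.10-fold fall (log2 change -3.02 ± 0.23, adjusted p = 0.00125, limma). Its DEM arrays were both low, and the groups were apart. Cmpk2 had levels of -1.70 and -1.40 untreated and was not well above background with DEM. It was at least 7.60-fold lower, in a direction that the filter on dim probes set. The promoter windows of this pair lie on chromosome 12, Rsad2 on the minus and Cmpk2 on the plus strand.

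The Mx GTPases, which trap viral nucleoproteins, were less even between arrays. Mx2 had untreated levels of 1.40 and 1.65, against -0.19 and -2.49 on the DEM arrays, a 7.28-fold fall (log2 change -2.86 ± 0.69, adjusted p = 0.0293, limma). DEM 1 lay much nearer to the untreated arrays than DEM 2 did. Mx1 had levels of -4.25 and -2.55 untreated and was not well above background with DEM, so it was at least 2.10-fold lower, again in a direction set by the filter. With normexp background correction its change was -0.58 and did not pass (adjusted p = 0.112, limma). The Mx2 call was lost without untreated 1 (adjusted p = 0.109) and without untreated 2 (adjusted p = 0.135), and the Mx1 call without untreated 2 (adjusted p = 0.0957), all from limma.

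Among 3 enzymes that act on RNA, 1 fell. Eif2ak2 encodes PKR, the kinase that stops translation when it binds double-stranded RNA. Its levels were 2.48 and 2.73 untreated and 0.85 and 1.13 with DEM, a 3.05-fold fall (log2 change -1.61 ± 0.20, adjusted p = 0.00443, limma). The groups were apart by more than either pair differed. Adar, which edits double-stranded RNA, had levels of 1.19 and 1.58 untreated and 0.78 and 0.72 with DEM. Its change was -0.63 ± 0.21 and did not pass (adjusted p = 0.0705, limma), although both DEM arrays were the lower. It passed under 5 of 18 alternatives, with changes from -1.31 to -0.44 over all of them. Isg20, an exonuclease, had levels of 1.15 and 1.28 untreated and -0.07 and 0.67 with DEM. Its change of -0.91 ± 0.28 did not pass either (adjusted p = 0.0596, limma), and its DEM arrays were further from each other than its untreated arrays were. Isg20 passed under 8 of 18 alternatives, with changes from -1.29 to -0.54 and adjusted p from 0.00458 to 0.745 (limma).

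ISG15 is a small ubiquitin-like protein that is joined to other proteins by an enzyme chain, and 4 of the 5 tested genes of this system fell. Isg15 itself had levels of 3.37 and 3.90 untreated and 0.56 and 0.31 with DEM. It fell 9.19-fold (log2 change -3.20 ± 0.24, adjusted p = 0.00117, limma). Both DEM arrays were low and the groups did not overlap. Uba7, the activating enzyme, had levels of 2.01 and 2.03 untreated and -1.77 and -1.99 with DEM, a 14.9-fold fall (log2 change -3.90 ± 0.19, adjusted p = 0.00065, limma). Its untreated arrays were almost equal, and the DEM arrays lay close together far below. On DEM 1 the scanner software had not found the Uba7 spot, whose mean signal was 178 over a local background of 30. Ube2l6, the conjugating enzyme, fell 4.48-fold (log2 change -2.16 ± 0.22). Herc6, the main ligase of the mouse, had levels of -1.45 and -1.97 untreated and -2.42 and -1.89 with DEM. These overlapped, and the change of -0.44 ± 0.31 did not pass (adjusted p = 0.323, limma; 95% interval -1.20 to 0.31). Usp18, which removes ISG15 from proteins and also damps the interferon receptor, had levels of 2.31 and 2.26 untreated and -2.19 and -4.14 with DEM. Its fitted change was -5.45 ± 0.59 (43.7-fold lower, adjusted p = 0.00314, limma). Only 1 of its DEM arrays was well above background, so the lower DEM level is loosely known. Trim25, another ligase, was not well above background on any array.

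Of 4 genes for TRIM and nuclear body proteins, 3 fell. Trim30a had levels of 2.08 and 1.99 untreated and -0.07 and 0.18 with DEM, a 3.95-fold fall (log2 change -1.98 ± 0.19, adjusted p = 0.0023, limma). Its groups were clearly apart, though the mouse holds close copies of it. Trim21, an antibody receptor inside the cell, fell by 1.75 ± 0.23, and the nuclear body component Sp100 fell by 1.58 ± 0.24. Pml, which builds the nuclear bodies, had levels of 1.74 and 2.02 untreated and 0.72 and 1.64 with DEM. Its change of -0.70 ± 0.33 did not pass (adjusted p = 0.162, limma). DEM 2 lay just under the untreated arrays, while DEM 1 lay well below, and without DEM 2 the change was -1.16 and passed (adjusted p = 0.0084, limma).

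Of 4 genes of ADP-ribosylation, the transfer of ADP-ribose to proteins, 3 fell. Parp9 had levels of 0.76 and 0.96 untreated and -1.27 and -1.66 with DEM, and fell 5.02-fold (log2 change -2.33 ± 0.23, adjusted p = 0.00238, limma). Its partner Dtx3l, a ubiquitin ligase, had levels of 1.63 and 1.39 untreated and -0.64 and -0.42 with DEM, a 4.10-fold fall (log2 change -2.04 ± 0.20). Both genes showed the same pattern, a high untreated pair and a low DEM pair. Parp14 fell by 1.70 ± 0.17. Parp12 had levels of -0.29 and -6.87 untreated and -1.49 and -1.92 with DEM, so that a single untreated array was far below all the others. On that array, untreated 2, the scanner software had not found the spot, whose mean signal of 27.0 lay under a local background of 30. The change of 1.87 ± 1.91 did not pass (adjusted p = 0.502, limma). Without untreated 2 it was -1.42 (adjusted p = 0.0883), and without untreated 1 it was 5.16 and passed (adjusted p = 0.0124), both from limma.

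The PYHIN genes encode proteins of the family that senses DNA in the nucleus and cytosol. Of 3, Ifi203 fell by 1.10 ± 0.19 and Ifi205 fell by 1.02 ± 0.19. Ifi203 had levels of 2.26 and 2.22 untreated and 1.00 and 1.29 with DEM (adjusted p = 0.0112, limma), with no overlap. Ifi204 had levels of 3.95 and 3.80 untreated and 3.99 and 3.81 with DEM. The 4 arrays were nearly level, and the change of 0.03 ± 0.17 did not pass (adjusted p = 0.911, limma; 95% interval -0.38 to 0.44). This interval lies above the fitted falls of Ifi203 and Ifi205. A further probe for Ifi204 fell by 0.94 ± 0.25 (adjusted p = 0.0389, limma fit over probes), and genes of this cluster are near-identical over parts of their sequence, so which gene each probe reads is uncertain.

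Of 10 other effectors, 9 fell. Rtp4, an inhibitor of flavivirus replication, had levels of 4.95 and 5.07 untreated and 1.79 and 0.88 with DEM, a 12.8-fold fall (log2 change -3.67 ± 0.31, adjusted p = 0.00156, limma). Lgals3bp, a secreted glycoprotein, had levels of 5.92 and 6.25 untreated and 3.96 and 3.79 with DEM, a 4.62-fold fall (log2 change -2.21 ± 0.18, adjusted p = 0.00148, limma). In both genes the untreated arrays were high and the DEM arrays low, with the DEM pair of Rtp4 the less even. Xaf1, a promoter of cell death, had levels of 0.70 and 0.97 untreated and -2.36 and -3.04 with DEM, an 11.6-fold fall (log2 change -3.53 ± 0.29, adjusted p = 0.0015, limma). Ifi44 fell 22.7-fold, and Ifi47, an interferon-inducible GTPase, 5.63-fold. Samd9l fell by 2.18 ± 0.22, Rnf213 fell by 1.07 ± 0.19 and Ifi35 fell by 1.04 ± 0.21. Ifi27 fell the least of the genes that passed, 1.93-fold, from 6.88 on both untreated arrays to 5.98 and 5.89 (adjusted p = 0.00662, limma). Each pair was almost level, and the SE of its change was 0.14. Ifi30, a thiol reductase of lysosomes that helps in antigen presentation, went the other way, with levels of 1.28 and 1.57 untreated and 1.62 and 2.18 with DEM. Its change of 0.47 ± 0.25 did not pass (adjusted p = 0.207, limma). The lower DEM array lay just above the higher untreated array, and without DEM 1 the change was 0.75 and passed (adjusted p = 0.0408, limma).

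**Figure D3:**
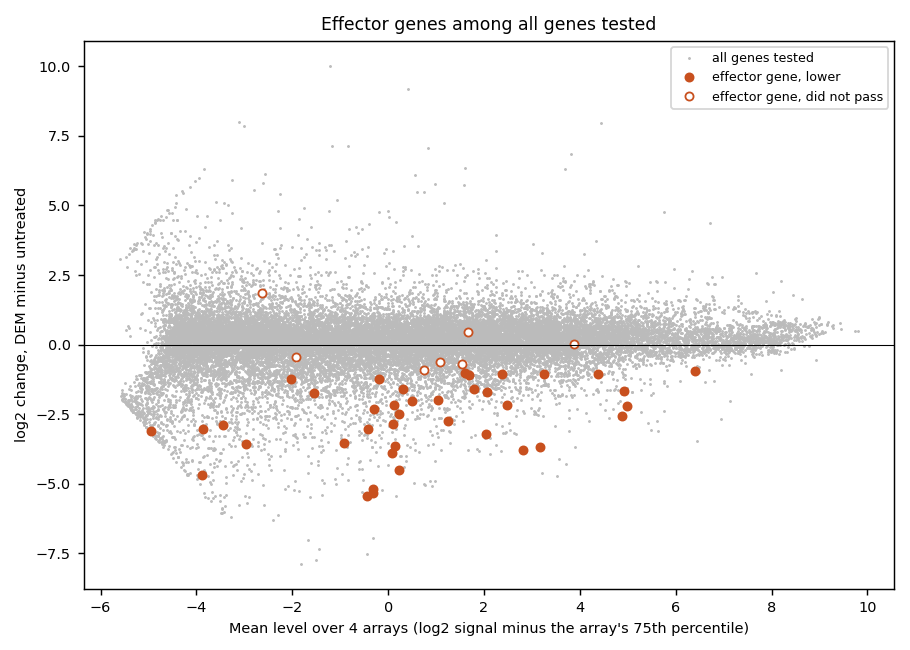
The change of every gene tested (grey) against its mean level over the 4 arrays, both on the log2 scale, with the effector genes in orange. The 39 that fell are filled, and the 7 that did not pass are open.

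In 44 of the 46 tested effector genes the change lay below the median of all genes, which by definition has as many genes below as above it. The 44 include the 5 genes dim on both DEM arrays, whose direction the filter set. Fitted changes ran from -5.45 (Usp18) to 1.87 (Parp12), with a median SE of 0.23. As for the replicates, the median signed difference (replicate 2 minus replicate 1) over the 46 genes was 0.13 untreated and -0.06 with DEM. Opposite differences cancel in such a median, so it does not give the spread. The largest absolute difference was 6.58 within the untreated pair and 2.29 within the DEM pair.

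Several effector genes have more than 1 probe, and these bear on how far the result rests on the probe chosen. Of 13 members with more than 1 measured probe, 12 had all probes changed in the same direction, with Ifi204 as the exception. In 7 of the 13 every probe passed and fell. Over all 62 measured probes of the members, 51 fell and 0 rose, where 12.2% of all 31771 measured probes fell and 14.6% rose (limma over probes). The 7 genes include Oas2, Oas3 and Parp14. The 51 probes include those of Oas1b, Oas3, Oasl1, Cmpk2 and Mx1, the second probe of Oas2 and a further probe of Parp14. None of these probes was well above background with DEM. Such probes entered through the untreated arrays alone, so the filter set their direction. Probes well above background on all 4 arrays were not counted apart. Sizes differed between probes of a gene by a median of 0.66 on the log2 scale. The brightest probe of Sp100 fell by 1.58, and its other probe fell by 3.36. For Oas2 the changes were -5.17 and -2.87, and for Oas3 -2.89 and -5.23. The second Oas2 probe and both Oas3 probes were not well above background on either DEM array. Their direction was set by the filter and their sizes are limited by the background, so these gaps do not compare the probes. Adar, which did not pass on its brightest probe, fell by 1.31 ± 0.21 on its other probe (adjusted p = 0.00839, limma over probes). Isg20 likewise changed by -0.97 ± 0.25 on its other probe (adjusted p = 0.0358, limma over probes). The widest gap, 2.79, was between the probes of Rsad2. Its probes changed by -3.02, -2.65 and -0.23, and the spot of the last had not been found on untreated 2. With the mean of its probes Rsad2 did not pass (log2 change -1.97, adjusted p = 0.0575, limma).

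**Figure D4:**
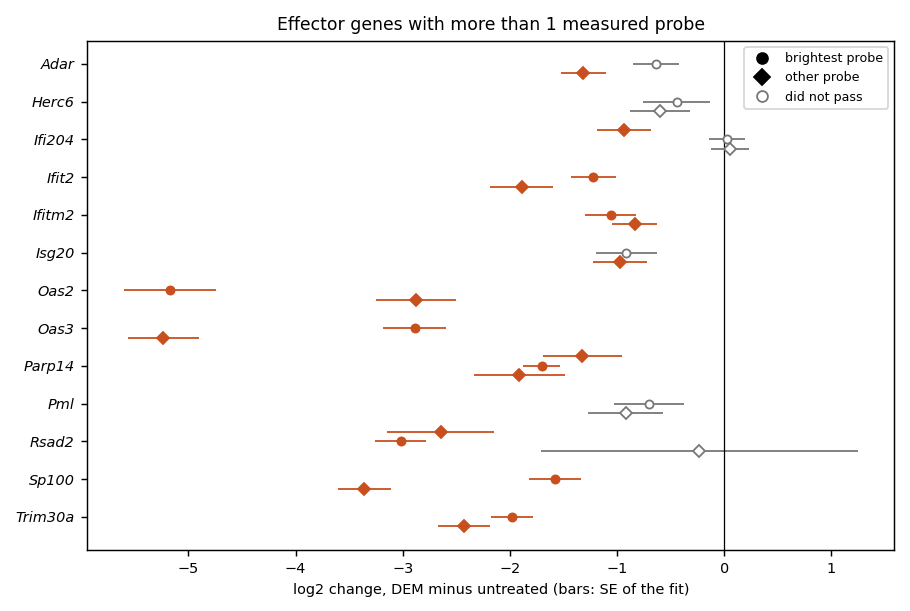
Changes of each probe (log2, DEM minus untreated; bars are the SE, n = 2 arrays per group) for the 13 members with more than 1 measured probe; circles are the brightest probe, diamonds the others, and open symbols did not pass. In 12 of the 13 genes all probes lie on the same side of 0. For Oas3, the second probe of Oas2 and a further probe of Parp14, the filter on dim probes set that side.

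Genes that act before and around the effectors were taken from a list of 55, of which 39 could be tested, 14 fell and 1 rose. Of all genes tested, 11.8% fell and 15.5% rose, and 3.61% fell with scaling to spike-in spots. The shares of 11.8% and 15.5% are also the background for the counts by role below. The count of 14 became 5 when untreated 1 was left out, 4 when untreated 2 was, and 4 after scaling to spike-in spots. Of 19 interferon genes 5 could be tested, and 0 passed (limma, adjusted p from 0.0643 to 0.888). Ifnb1, which encodes interferon beta, was not well above background on any array. Of 9 receptor and kinase genes 8 could be tested, and 0 passed in either direction (limma). Jak2, with a change of 0.66 ± 0.23 (adjusted p = 0.0805), passed with a replicate block (adjusted p = 0.0399) and without DEM 2 (0.85, adjusted p = 0.0311, all limma). The receptor genes Ifnar1 and Ifnar2 changed by 0.63 ± 0.25 (adjusted p = 0.113) and -0.10 ± 0.17 (adjusted p = 0.691, both limma). Ifnar1 had levels of 1.97 and 1.39 untreated and 2.45 and 2.18 with DEM, where both DEM arrays were higher, and Ifnar2 stayed between 1.88 and 2.04 on all 4.

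Transcription factor genes of the pathway fell in 6 of 9 cases. Irf7, the factor that amplifies interferon production, had levels of 0.34 and 1.04 untreated and -3.09 and -4.16 with DEM, a 19.9-fold fall (log2 change -4.31 ± 0.42, adjusted p = 0.00238, limma). Only 1 DEM array was well above background for it, and both were low. Irf9, the DNA-binding part of the ISRE complex, fell 3.31-fold (log2 change -1.73 ± 0.26, adjusted p = 0.00753, limma). Stat2, which joins it in that complex, fell by 0.80 ± 0.22 (adjusted p = 0.0408, limma). Irf1 fell by 0.63 ± 0.17. Irf5, not well above background with DEM, was at least 1.19-fold lower, in a direction set by the filter. It is counted among the 6 and among the 14 genes around the effectors that fell. With normexp correction the change of Irf5 was 0.076. Irf3, which starts interferon production, had levels of 3.12 and 2.95 untreated and 3.43 and 3.59 with DEM. Its change of 0.48 ± 0.17 did not pass (adjusted p = 0.0913, limma). Of the 14 genes around the effectors that fell, Irf7, Zbp1, Dhx58 and Ifih1 passed also when either untreated array was left out and after scaling to spike-in spots, and the other transcription factor genes did not.

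Among 12 sensors and adaptors of foreign nucleic acid, 5 fell and 1 rose. Zbp1, a sensor of left-handed nucleic acid, had levels of 2.49 and 2.49 untreated and -2.21 and -3.26 with DEM, a 37.4-fold fall (log2 change -5.22 ± 0.36, adjusted p = 0.00103, limma). Its untreated arrays were nearly equal and its DEM arrays both far lower. The RNA helicase genes fell too, with changes of -3.70 ± 0.20 for Dhx58, -2.17 ± 0.21 for Ifih1 and -1.61 ± 0.36 for Ddx58, which encodes RIG-I. The kinase gene Ikbke fell by 1.91 ± 0.27. Cgas, the enzyme that senses DNA in the cytosol, rose 3.22-fold, from -0.72 and -0.62 to 0.87 and 1.16 (log2 change 1.69 ± 0.20, adjusted p = 0.00402, limma). Both DEM arrays were above both untreated arrays for it, but it did not pass with scaling to spike-in spots (adjusted p = 0.345, limma). Of 5 feedback inhibitors 3 fell: the changes were -1.18 ± 0.21 for Socs3, -1.54 ± 0.37 for Ptpn6 and -0.62 ± 0.17 for Socs1. A second probe for Ptpn6 changed by 0.37.

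**Figure D5:**
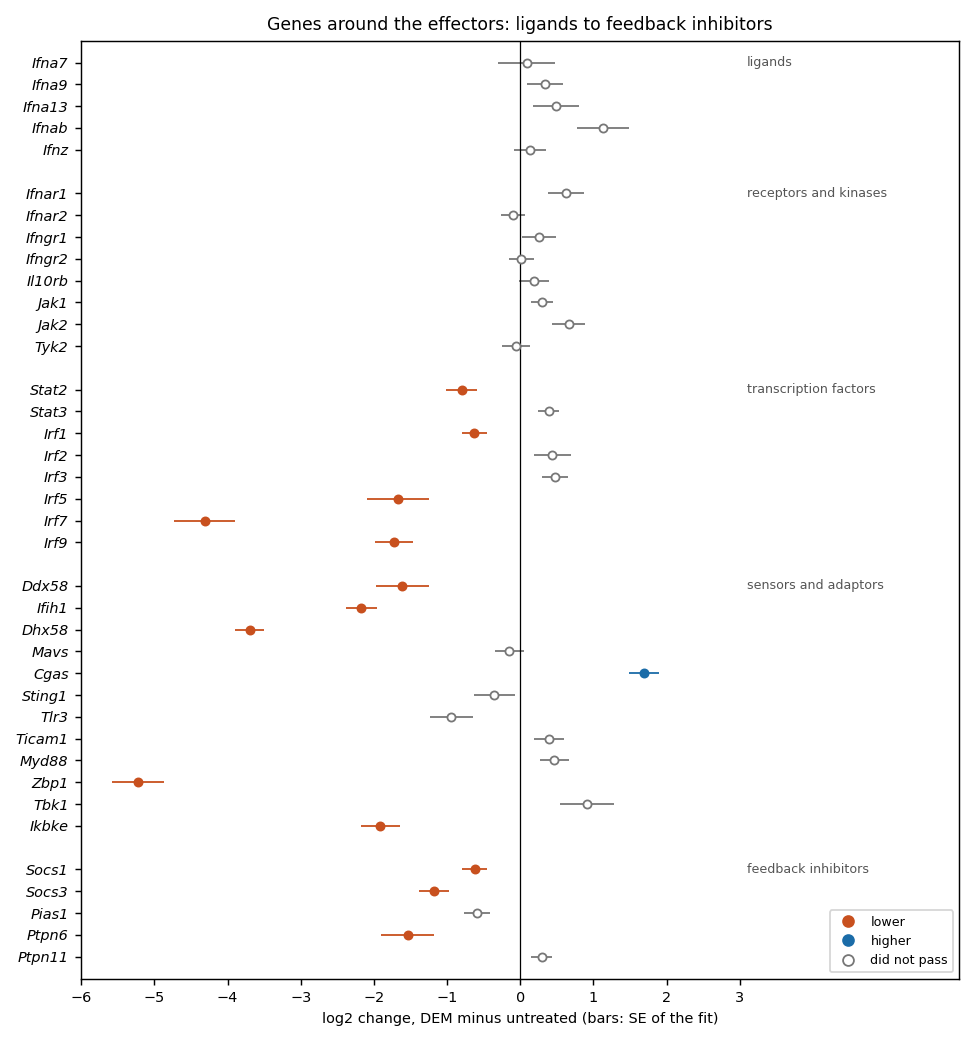
The change of 38 tested genes around the effectors (log2, DEM minus untreated; bars are the SE, n = 2 arrays per group), from interferon ligands to feedback inhibitors. Of the receptors and kinases 0 of 8 passed in the fit shown, while Irf7 fell by 4.31, Zbp1 fell by 5.22 and Cgas rose by 1.69.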

How the data were processed

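RNA of 4 samples (500 ng each, per the labels) was labelled with Cy3 and hybridised to custom Agilent mouse arrays, all on 1 slide. Spot intensity values were deposited by the authors as Feature Extraction 10.7.3.1 output, which per the file headers had been background-subtracted (spatial detrend), corrected by a multiplicative detrend and given surrogates where signals were low. The authors also deposited log2 values per probe; at least 99.98% of them lay within 0.01 of log2 processed signal minus the array's 75th percentile (column medians -4.39, -4.35, -4.30 and -4.36), and they served as an alternative.

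Control spots (1319 per array) and probes with an outlier mark (130) were left out, and no spot was saturated. Log2 processed signal minus the array's 75th percentile over non-control spots was used. Probes well above background (software mark, multiplier 13) on at least 2 of 4 arrays were kept (31771 of 61177), with the brightest probe per gene. Probes were named by accession (28136), symbol (4982) or synonym (1406) from RefSeq genes of GRCm38.p6, and 26783 kept the name in the files. Groups were compared in R 4.3.3 (limma 3.58.1, lmFit and eBayes with an intensity trend, 2 residual and 4.03 prior degrees of freedom, the data.table package at 1.17.8; figures with matplotlib 3.10.9), by two-sided tests, with p adjusted over 24658 genes after Benjamini and Hochberg and a threshold of 0.05. For a gene dim on both arrays of a group, the fold is a bound against the higher of its own level and the lowest level well above background on each array (-5.14 to -4.39). The fit was tested on simulated data.

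Every effector gene was accounted for by role; the 1 or 2 with the smallest adjusted p in each role, and those that did not pass, were to be given with all 4 levels. Levels given for other genes were added after their values were seen. The effector genes, the lists around them and the markers were chosen with earlier results of these data known. A gene around the effectors is not reported here on its own and stays in the counts. Promoter sequences are from RefSeq, GRCm38.p6; the file headers name an older mouse build for the array design, and no probe coordinates are given. The 18 alternatives covered background correction, scaling, filters, the probe chosen, the variance trend, a replicate block, each array left out in turn and spots that were not found.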

Additional observations from a re-analysis of the deposited data

How the results depend on the processing

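Of the 39 effector genes that fell, 21 kept the call under all of the 18 alternatives that measured them, among them Ifit1, Ifit3, Isg15, Oas1a, Oasl2 and Usp18. The count of fallen effector genes was 24 with scaling to spike-in spots and 25 to 41 with 1 array left out. The lost calls with spike-in scaling were 15, among them Ifit2, Bst2, Eif2ak2 and Ifi27. The 21 that kept the call include Cmpk2, Oas1b, Oas3 and Oasl1, whose direction the filter on dim probes set. How many of all genes kept a call was not counted. The count of effector genes that rose was 1 with no filter on dim probes. This was Trim25, whose probes were not well above background on any array. With 1 array left out, Ifi30 changed by 0.75 (without DEM 1) and Parp12 by 5.16 (without untreated 1). Where a group kept 1 array, that array was assumed to vary like the other group.

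The median change of the effector genes was -1.86 with normexp, -2.24 with quantile normalization, -2.32 with cyclic loess, -2.33 with spike-in scaling or with the percentile over detected probes, -2.10 with no filter, -1.98 with a filter for 4 arrays, -2.27 with the second brightest probe and -2.26 to -2.03 with 1 array left out. Without probes whose spot was not found, an alternative chosen after seeing the data, it was -2.11. Such a spot occurred for 17 member probes, 9 of them brightest probes. Among the 9 were those of Ifit3 and Uba7, which this alternative did not measure. Cyclic loess, spike-in scaling and the percentile over detected probes moved the median of all genes by -0.15, -0.16 and -0.16. Over all genes, 3812 rose and 2900 fell (56.8% of changes upward). With normexp 6470 rose (70.0% upward), with cyclic loess 2529 (40.8%), with spike-in scaling 363 (29.0%, 889 fell), and with no filter 17297 (84.7%). The upward share was 46.6% with quantile normalization and 42.0% with the percentile over detected probes. With 1 array left out, 644 to 4488 rose and 802 to 3814 fell.

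The alternatives for the genes around the effectors were added after seeing the data. Of those genes, 4 fell with spike-in scaling and 4 to 15 with 1 array left out, against 14. The number that rose was 3 with normexp, 0 with spike-in scaling, 7 with no filter, 2 without the variance trend and 1 to 4 with 1 array left out. Ifi204 turned to -0.069 with normexp, -0.17 with quantile normalization, -0.0070 with the median, -0.19 with cyclic loess, -0.13 with spike-in scaling or the percentile over detected probes, -0.28 with the mean of probes and -0.062 to 0.12 with 1 array left out. Irf5 turned to 0.076 with normexp, Ifnar2 to 0.016 with the mean of probes and 0.13 with the second probe, Ptpn6 to 0.37 with the second probe, and Parp12 ranged from -1.42 to 5.16 with 1 array left out. The cause of these changes was not tested.

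With the replicate number as a block, 40 effector genes fell, with a median of -2.17, 3 genes around them rose and 1 receptor or kinase gene (Jak2) passed. Deviations of same-numbered arrays correlated at 0.08, and the labels do not say that the numbers pair the samples. With 2 arrays a group, the number of arrays limits the precision, and genes at the background have only bounds.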
